A study of Mus musculus with 2 samples.

Results

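The heat shock protein genes described here were Hspa1a, Hspa1b, Hspa8, Hsph1, Hsp90aa1, Hsp90ab1, Dnajb1, Hspb1, Hspd1 and Hspe1, 10 genes listed by name, with earlier results of these data known. Of these, 9 had a probe on the array, 14 probes in all, out of 20652 genes and 39402 probes. No probe was matched to Hspa1b, which therefore has no value of its own here. All 14 probes were well above background on both arrays, so that no member was lost to a filter on dim signals. The RNA was liver total RNA of male mice, and the study's methods name the C57BL/6 background. In the fasting group food was withdrawn overnight for 14 to 16 h, given as 16 h in a second label, and the mice of the feeding group received food after a fast, although another label describes them as fed ad libitum. Livers of 3 mice were pooled in each group and each pool was read on 1 Agilent array, so nothing can be tested across mice and p-values are not given. In bulk liver RNA, fewer cells of a type and less RNA per cell cannot be told apart.

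Heat shock proteins are molecular chaperones, which bind unfolded or newly made proteins and help them to fold, refold or be degraded. Hsp70 proteins (Hspa1a, Hspa8) hold and release their clients with the use of ATP, J-domain proteins such as Dnajb1 deliver the clients and start ATP hydrolysis, and Hsp110 (Hsph1) exchanges the nucleotide. Hsp90 acts later on kinases and nuclear receptors, among them the glucocorticoid receptor of the liver, while the small heat shock protein Hspb1 prevents aggregation without ATP. Several of these genes are induced together by heat shock factor 1, which binds repeats of a short element in their promoters, whereas Hspa8 and Hsp90ab1 are known as the constitutive relatives of Hspa1a and Hsp90aa1. The name of cytosolic proteins does not hold for all 10 genes, since Hspd1 and Hspe1 encode Hsp60 and Hsp10, the chaperonin of the mitochondrial matrix.

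Upon feeding, 8 of the 9 measured genes were higher and 1, Hspb1, was lower. Of all genes 47.7% were higher, as were 51.8% of the 5450 genes of highest signal. The median difference of the 9 genes was 0.57 (log2, feeding minus fasting) against 0.0 over the 16346 genes measured. Hspa1a (3.06-fold) and Hsph1 (2.21-fold) were past the 2-fold threshold of the study's methods, Dnajb1 (1.75-fold), Hspe1 (1.62-fold) and Hsp90aa1 (1.49-fold) were below it, and Hspd1, Hsp90ab1, Hspa8 and Hspb1 differed by at most 1.20-fold by the brightest probe of each gene. Thus 2 of 9 genes were past 2-fold and higher, where 3.29% of all genes were, and 0 of 9 were past 2-fold and lower, where 4.62% of all genes were. At 1.5-fold, 4 of the 9 genes were higher and 0 lower, where 10.5% of all genes were higher and 10.6% lower. Hspa1a alone was past 3-fold, as were 0.967% of all genes in that direction. Among the 5450 genes of highest signal, where all members but Hspa1a lie, the background at 2-fold was 2.09% higher and 3.71% lower. Of the 14 probes, 3 were past 2-fold and higher, against 3.1% of all probes of genes. Each gene is represented here by its brightest probe, after quantile normalization of both arrays, and signals are given before that step unless called normalized. The sign of Hspb1 turned when the arrays were scaled by their medians, and the other 8 genes were higher under every scaling and background correction tried.

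**Figure D1:**
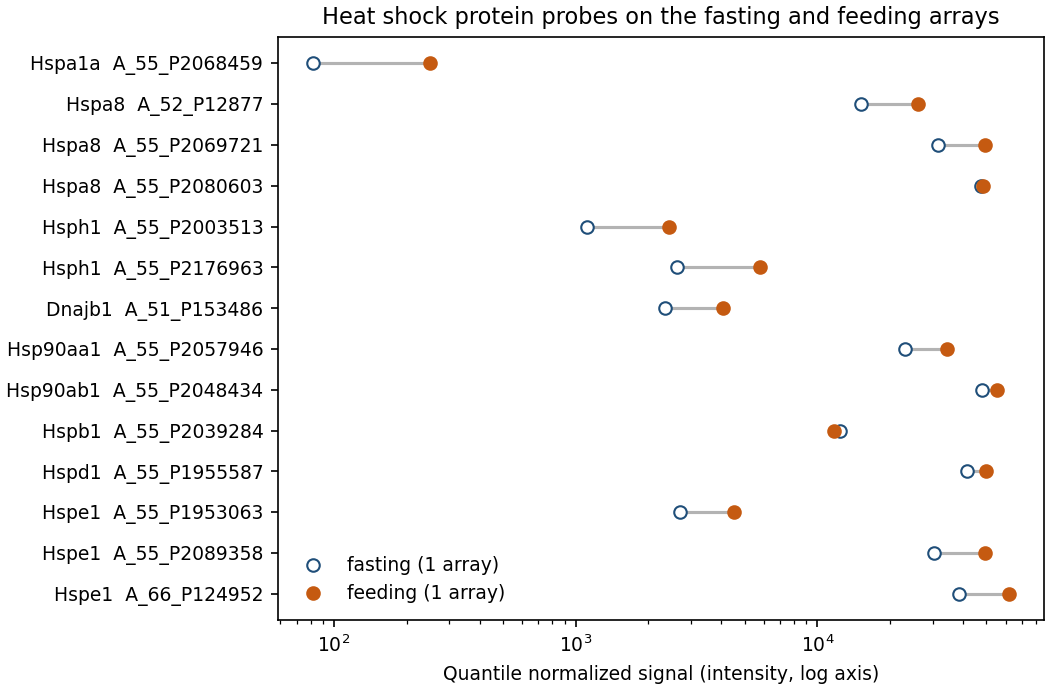
Quantile normalized signal (intensity, log axis) of each of the 14 heat shock protein probes on the fasting array (open circles) and the feeding array (filled circles), with a grey line between both values of a probe. The filled circle lies to the right for 13 probes and to the left for the Hspb1 probe; levels of different probes are not comparable.

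The error of these values has 2 sources that the arrays show. Of 399 probes printed about 10 times on each array, those of high signal had an SD of 0.10 for a difference between the arrays on the log2 scale, and those of middle signal 0.14. The scanner software gives each spot an error of its own, which comes to 0.20 for a log2 difference of 13 of the member probes and to 0.21 for that of Hspa1a. Neither includes the spread between mice, which pooling hides. Each array had 44397 spots and 0 saturated ones. The share of transcript spots that stood well above the background was 63.1% in the fasting pool and 72.3% in the feeding pool.

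Within the Hsp70 system, the stress-inducible Hspa1a had the largest change of the members. Its single probe had a processed signal of 87.9 upon fasting and 235 upon feeding, over a local background of 24.5 and 17.0. The change was 1.61 on the log2 scale after normalization, and 0.905% of all genes increased more. This probe is much closer to the background than the other 13, and the size of its change followed the treatment of the background. It was 1.22 with no background subtraction and 0.80 with the normexp correction, which adds an offset to all signals. The 2-fold call ended there, although the direction was kept, and 1 of the 9 genes (Hsph1) was then past 2-fold and higher, against 1.32% of all genes. Hspa1a and Hspa1b are near-identical neighbouring copies, and whether this probe also binds Hspa1b transcripts is not known from the files.

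Hsph1, the Hsp110 nucleotide exchange factor, stayed past 2-fold by its brightest probe under each processing tried. One of its probes (A_55_P2176963) went from a processed signal of 2657 upon fasting to 5734 upon feeding and the other (A_55_P2003513) from 1148 to 2397. Both probes were thus higher upon feeding by nearly the same factor, 1.14 and 1.13 on the log2 scale, a range of 0.02 between them. Across the 4 other scalings and background corrections the lowest value was 1.01, for A_55_P2003513 with the normexp correction, and the highest 1.34. Of all genes, 2.32% increased more than Hsph1.

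Dnajb1, the Hsp40 partner of inducible Hsp70, was read by 1 probe, with 2380 upon fasting and 4045 upon feeding. Its change of 0.80 exceeded the replicate-spot SD of 0.10 and the software's error of 0.20, and 5.63% of all genes increased more. With scaling by the medians Dnajb1 reached 2-fold, while its change was 0.70 with the normexp correction.

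Hspa8, the constitutive Hsc70, is the member whose probes disagree. Probe A_52_P12877 read 15272 upon fasting and 25763 upon feeding, a change of 0.79, and probe A_55_P2069721 read 32026 and 48460, a change of 0.65. The third, A_55_P2080603, read 48379 and 47928, or 47510 and 48564 after normalization, a change of 0.03. So 2 of the 3 probes were higher upon feeding and the third was level within its error. The third probe has the highest mean signal and stands for the gene in the counts above, whereas the mean over the 3 probes was 0.49. All 3 carry the same RefSeq transcript identifier, and their positions in the transcript were not used here. Among 440 genes with 3 probes well above background on both arrays, the median range between probes was 0.40, and 24.1% had a range at least as wide as the 0.75 of Hspa8. The difference of Hspa1a or Hsph1 from Hspa8 (1.58 and 1.11 by the probes that stand for the genes) therefore depends on which Hspa8 probe is read, and its cause was not tested.

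**Figure D2:**
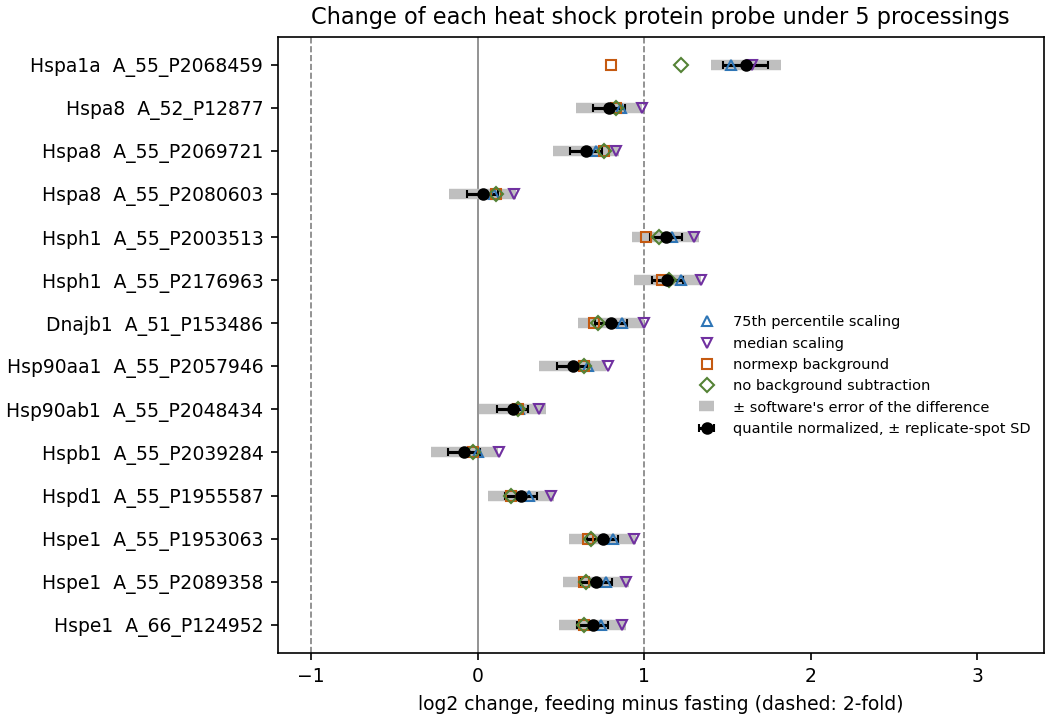
Change of each member probe, feeding minus fasting on the log2 scale, after quantile normalization (black circles, bars show the replicate-spot SD and grey bands the software's error of a difference) and under 2 other scalings and 2 other background treatments (open symbols). The Hspa1a probe moves most between the processings, from 0.80 to 1.65, and 1 of the 3 Hspa8 probes lies near 0 while the others lie at 0.65 and 0.79.

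For Hsp90, the inducible and the constitutive isoform both had bright probes. The signal of Hsp90aa1 was 23282 upon fasting and 33986 upon feeding, a change of 0.57, and that of Hsp90ab1 was 48592 and 53532, a change of 0.21. The difference between the changes of Hsp90aa1 and Hsp90ab1 was 0.37. It is larger than the SD that replicate spots give for such a difference, 0.13, and also larger than that from the software's error, 0.28. However, Hsp90aa1 and Hsp90ab1 have 1 probe each. Among genes with 3 probes well above background, the median range between probes was 0.40, which is wider than this difference. The difference also has no measure of the spread between mice. Of all genes, 10.8% increased more than Hsp90aa1 and 29.7% more than Hsp90ab1.

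The small heat shock protein Hspb1 (Hsp25 in mouse) was the only member that was lower upon feeding. Its signal was 12558 upon fasting and 11650 upon feeding, a change of -0.08, which lies within the replicate-spot SD. With scaling by the medians it was 0.13, so no direction can be given for Hspb1.

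The mitochondrial chaperonin genes Hspd1 and Hspe1 are neighbours that are transcribed in opposite directions. The single Hspd1 probe read 42308 upon fasting and 48654 upon feeding, a change of 0.26. The 3 Hspe1 probes read 38868 and 60193 (A_66_P124952), 30808 and 48550 (A_55_P2089358), and 2726 and 4443 (A_55_P1953063), all higher upon feeding. Their changes of 0.69, 0.71 and 0.75 span 0.05 on the log2 scale although 1 probe is much dimmer than the others. The change of Hspe1 exceeded that of Hspd1 by 0.43, against an SD of 0.13 from replicate spots and an error of 0.28 from the software. Hspd1 has only 1 probe, and the median range between probes was 0.40 among genes with 3 probes well above background.

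The promoters are shown because several of these genes share a known regulatory element. The sequences let the reader see which members hold an exact match to its motif close to the start. Sequences are from RefSeq, assembly GRCm38.p6, written 5′ to 3′ on the strand of the gene; the array design names an older assembly, mm9, and no coordinate of it is used. The windows run from 250 bases before to 50 bases after each start, and 7 of the 10 genes had at least 1 window, not Hspa8, Hsp90aa1 and Hsp90ab1. Heat shock elements consist of alternating GAA and TTC units spaced by 2 bases. The motif of 3 units (GAA, any 2 bases, TTC, any 2 bases, GAA, on either strand) was found in the windows of Hspd1, Hspe1 and Hsph1, 3 of 7 genes, and in 0.662% of the 27025 genes with a window. The shorter motif of 2 units (GAA, any 2 bases, TTC, or TTC, any 2 bases, GAA), each form of which reads the same on both strands and forms part of the longer motif, was found in 6 of the 7 genes and in 17.0% of all genes. These counts are not of separate promoters. Hspd1 and Hspe1 share 285 bases of their windows and the same matches, and the windows of Hspa1a and Hspa1b are 98.7% identical. Capitals mark the bases of either motif. A match describes the letters and is not a measurement of binding. Only exact matches within these windows were searched, so a gene without a match is not shown to lack the element.

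Hspe1, bases -93 to -64 from its start, chr1:55088055-55088084, plus strand, between the divergent starts of Hspe1 and Hspd1, which lie 216 bases apart. The stretch holds 4 alternating units in a row and lies in the windows of both genes, of which Hspe1 changed by 0.69 and Hspd1 by 0.26.
Hspe1: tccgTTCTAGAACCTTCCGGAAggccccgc

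Hsph1, bases -120 to -1, chr5:149636337-149636456, minus strand, with 1 match of 2 units from base -33 to -26, and bases 22 to 50 after the start, chr5:149636287-149636315, with the match of 3 units.
Hsph1 before the start: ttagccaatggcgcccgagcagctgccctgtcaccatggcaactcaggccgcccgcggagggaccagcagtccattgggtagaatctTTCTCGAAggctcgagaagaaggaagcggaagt
Hsph1 after the start: gtaaaatgctgcagaTTCTGGAAAGTTCt

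Hspa1a, chr17:34972157-34972336, and Hspa1b, chr17:34959239-34959418, minus strand, bases -180 to -1. The stretches of 180 bases differ at 1 position and the whole windows of 300 bases at 4. They are shown to make plain how alike the copies are outside their coding sequence. Each holds 1 match of 2 units, from base -104 to -97.
Hspa1a: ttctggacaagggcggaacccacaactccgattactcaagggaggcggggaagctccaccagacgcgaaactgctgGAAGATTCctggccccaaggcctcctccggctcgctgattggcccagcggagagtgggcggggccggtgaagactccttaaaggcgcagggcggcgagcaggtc
Hspa1b: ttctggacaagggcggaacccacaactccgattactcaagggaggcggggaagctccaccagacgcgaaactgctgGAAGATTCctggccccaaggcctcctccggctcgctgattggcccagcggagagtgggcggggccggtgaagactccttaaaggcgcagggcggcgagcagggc

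Hspb1, bases -130 to -71, chr5:135887789-135887848, plus strand, shown because this gene has 2 matches of 2 units and its signal moved by only -0.08.
Hspb1: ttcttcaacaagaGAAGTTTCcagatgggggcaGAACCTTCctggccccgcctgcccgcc

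Dnajb1 had no exact match of either motif in its windows, and its change was 0.80. Beyond these members, 67 other genes measured had the motif of 3 units in a window. Their median change was 0.0, with 3 past 2-fold higher (4.48%) and 3 lower (4.48%), near the 3.29% and 4.62% of all genes. Among the members with the motif of 3 units, Hsph1 changed by 1.14, Hspe1 by 0.69 and Hspd1 by 0.26.

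**Figure D3:**
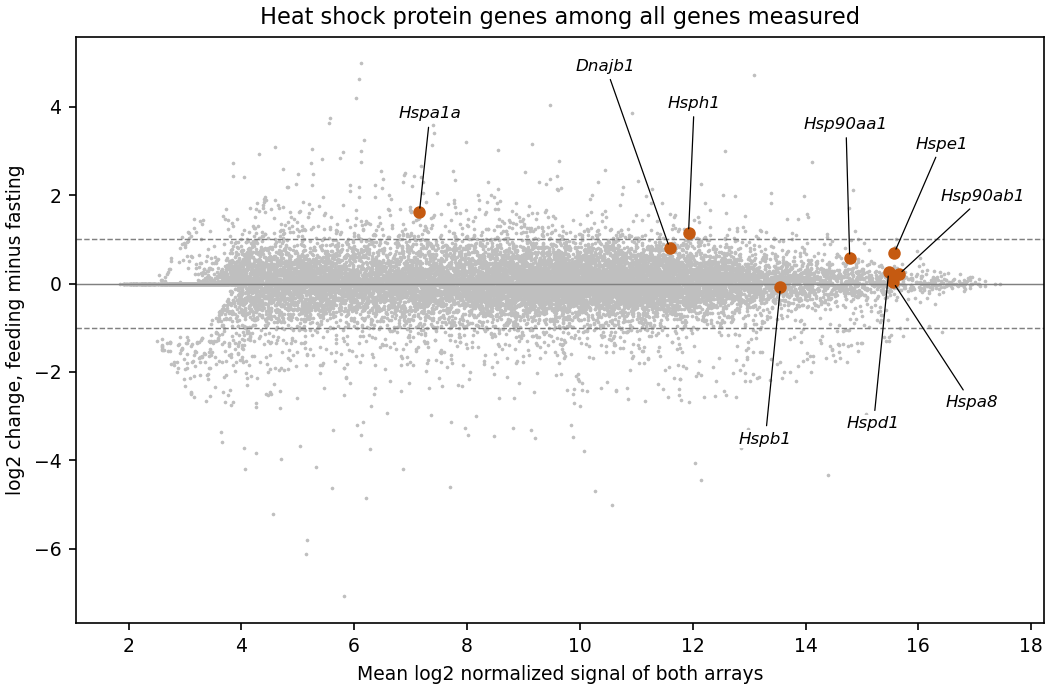
Change upon feeding (log2, vertical axis) against the mean log2 normalized signal of both arrays (horizontal axis) for the 16346 genes measured (grey points) and the 9 heat shock protein genes (orange points), with dashed lines at 2-fold. Hspa1a and Hsph1 lie above the upper line, and points of dim genes at exactly 0 are those whose lower bound gave no difference.

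The wider chaperone network and related genes were read from 12 lists. Beside the counts in these lists, 3.29% of all genes were past 2-fold and higher and 4.62% past 2-fold and lower. Of the regulators of the heat shock response, Hsf1, the main stress-activated factor, had a normalized signal of 2201 upon fasting and 2568 upon feeding, a change of 0.22, and Hsf2 went from 266 to 409, a change of 0.62. The list's median was 0.62, or 0.39 with the normexp correction. Of its 5 genes 1 was past 2-fold, Hsf5, at 1.30 on a dim probe with signals of 26.3 and 64.8. With the normexp correction the change of Hsf5 was 0.39.

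Among partners of Hsp70, the changes past 2-fold fell on the J-domain gene Dnaja1 and on Bag3. Dnaja1, a cytosolic Hsp40, had a normalized signal of 14900 upon fasting and 30705 upon feeding, a change of 1.04. It was the only 1 of 12 other J-domain genes past 2-fold, and the median of that list was 0.14. Bag3, a nucleotide exchange factor that links Hsp70 and small heat shock proteins to selective autophagy, went from 2717 to 7161, a change of 1.40, and kept at least 1.33 under the other scalings and background corrections. It was 1 of 7 in its list, where the median was 0.05. None of the 8 other Hsp70 and Hsp110 genes was past 2-fold, and their median was 0.32 (0.13 with the normexp correction). Hspa4 was at 0.51 (0.23 over its 3 probes) and Hspa14 at 0.54.

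Of 19 cochaperones of Hsp90, 15 were higher and 4 lower upon feeding. Of all genes 47.7% were higher, as were 51.8% of the genes of highest signal. The median of the cochaperones was 0.32, and 1 was past 2-fold in each direction. These were Fkbp4 and Fkbp5, immunophilins known to compete for Hsp90 in complexes of steroid receptors, the first favouring and the second restraining the glucocorticoid receptor, which in turn induces Fkbp5. Fkbp4 went from a normalized signal of 2242 upon fasting to 4606 upon feeding, a change of 1.04. Fkbp5 went the other way, from 13466 to 6562, a change of -1.04. Both lie at the threshold, since Fkbp4 was at 0.99 with the normexp correction and Fkbp5 at -0.83 with scaling by the medians.

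Of the other folding machines of the cytosol, neither the chaperonin TRiC nor prefoldin had a gene past 2-fold. The 8 subunits of TRiC, which folds actin and tubulin, had a median of 0.27, with Cct5 at 0.32 and Cct2 at 0.49. The 6 of prefoldin, which hands clients to TRiC, had a median of 0.06, with Pfdn5 at 0.06 and Vbp1 at 0.05. The mean over the 2 Vbp1 probes was -0.22, so no direction can be given for Vbp1. Of the 6 other small heat shock protein genes measured, 5 were lower, as were 7383 of all 16346 genes. Their median was -0.21 and none was past 2-fold, with Hspb8, the partner of Bag3, at -0.51 and Hspb6 at -0.06. Of 13 other mitochondrial chaperones and proteases 1 was past 2-fold, Grpel2, a nucleotide exchange factor of mitochondrial Hsp70, at -1.14 (-0.84 with the normexp correction), and the list's median was 0.03.

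Chaperones of the endoplasmic reticulum had the highest median of the lists. All 17 were higher upon feeding by the brightest probe of each gene, and 8 of them were past 2-fold. Over all genes, 47.7% were higher (51.8% of the genes of highest signal) and 3.29% were past 2-fold and higher. The median of the list was 0.99 against 0.57 for the 9 heat shock protein genes. Of those past 2-fold, Dnajb11 was at 1.19 by its brightest probe but at 0.01 over its 2 probes. Dnajb9 was at 1.03 and at 0.83 over its 2 probes, and Hsp90b1 lay at the threshold (1.0). Sdf2l1 was at 3.86, Creld2 at 2.74, Pdia4 at 2.24 and Manf at 1.98. Hyou1, which was not well above background upon fasting, was at least 6.57-fold higher by its bound. This size follows the treatment of the background, since the log2 change of Hyou1 was 2.71 here, 1.20 with no background subtraction and 0.55 with the normexp correction, which ends the 2-fold call. Hspa5 (BiP), the Hsp70 of that compartment, was at 0.74, beside 1.61 for Hspa1a, but with the normexp correction the order turned, with 0.83 for Hspa5 and 0.80 for Hspa1a. That list had been seen to move before it was written, so its direction is no independent evidence.

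Of the cold-inducible genes, Cirbp changed by -0.07, with a sign that turned with scaling by the medians (0.14), and Rbm3 by 0.67, with a mean of 0.40 over its 3 probes; neither was past 2-fold. Immediate early genes respond to handling of the tissue among other stimuli. Of the 7 measured, 4 were past 2-fold and lower upon feeding and 0 higher, where 4.62% of all genes were lower and 3.29% higher. The median of the list was -1.05 (-0.24 with the normexp correction). Dusp1 was at -2.09, Fos at -2.05, Ier2 at -1.29 on a dim probe and Jun at -1.05. With the normexp correction Ier2 (-0.18) and Jun (-0.70) lost the 2-fold call. The list did not move one way, since Egr1 was at 0.75 and Atf3 at 0.50, both named after their values were seen. Their part in the result was not tested.

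**Figure D4:**
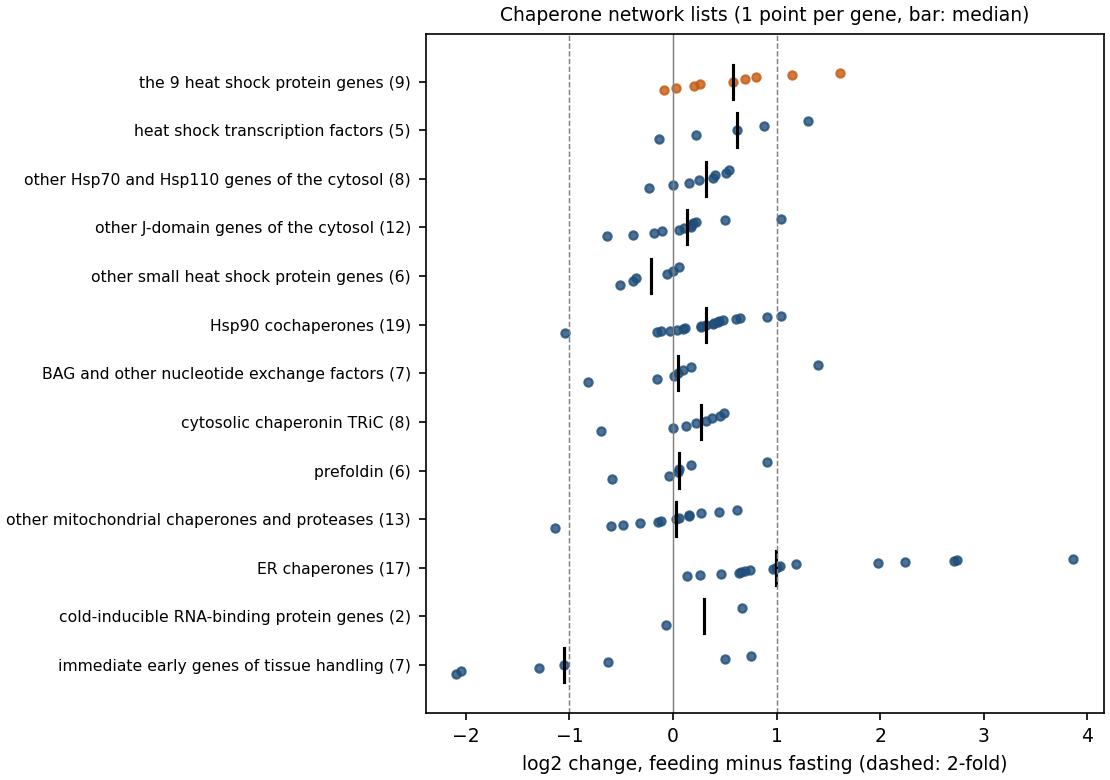
Change upon feeding (log2, horizontal axis) of each gene measured in the 9 heat shock protein genes (orange) and in the 12 lists of the chaperone network and related genes (blue), with a bar at each median and dashed lines at 2-fold. The medians run from -1.05 for the immediate early genes to 0.99 for the chaperones of the endoplasmic reticulum, with the heat shock protein genes at 0.57.

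All 6 hepatocyte markers, Alb among them, were well above background on both arrays, as the liver label implies. Their summed normalized signal was 513140 upon fasting and 415822 upon feeding. Of these markers Tat fell most, from 104878 to 53470, and Hnf4a (-0.43 on the log2 scale) and Cps1 (-0.33) were also lower. Alb and Apoa1 (-0.07 each) and Ttr (-0.02) were nearly level. Over the markers of other liver cells, the summed signal was 58861 and 41821 for Kupffer cells and macrophages, 39338 and 30171 for sinusoidal endothelial cells, 39215 and 30272 for stellate cells, 2757 and 3378 for cholangiocytes, 1414 and 1114 for lymphocytes, and 1486 and 2408 for neutrophils. Of the markers with a probe, 5 of 5, 6 of 6, 5 of 6, 4 of 5, 5 of 6 and 3 of 3 were well above background upon fasting, in the same order of cell types. Most of these sums were therefore somewhat lower upon feeding, and those of cholangiocytes and neutrophils were higher. A sum over a few markers is not a count of cells. The cholangiocyte sum was higher through Sox9, which went from 377 to 1625, whereas Spp1 went from 2303 to 1671 and Krt19 was at -0.31 on the log2 scale. Past 2-fold were Sox9 (2.11) and Ms4a1 (1.21, on a dim probe), higher upon feeding, and Pecam1 (-1.04) and Acta2 (-1.04), lower. The part of these cells in the result was not tested.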

How the data were processed

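The analysis used the Agilent Feature Extraction output of 2 arrays. Per the file headers and the study's methods, Cy3-labelled RNA was hybridised to the 1-colour mouse array, whose image was read with Feature Extraction 11.0.1.1; the deposited values are intensities, of which the processed signal is background-subtracted within the array and not normalized between arrays. The deposited value table equals the mean local background for 44397 of 44397 spots of each array (relative tolerance 1e-04) and was not used as expression.

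Control and outlier spots were left out, log2 processed signals were averaged per probe and quantile normalized over the 39402 probes. Transcript identifiers matched 27218 probes (69.1%) to genes of the RefSeq table of GRCm38.p6. A gene needed its brightest probe well above background on 1 array or more; where only 1 array was, the change is a lower bound against the higher of the dim probe's signal and the lowest well-measured signal (1831 genes), set to 0 if this leaves none. Past 2-fold means called. With 1 array a group there is no test, and precision is limited by the number of arrays. The calling steps were tried on simulated data with noise of the replicate-spot size only. That simulation held no spread between mice, changed only probes of higher signal and took all probes as well above background. It therefore cannot show whether the calls hold across mice or for dim probes. Alternatives were other scalings, normexp (offset 50, limma 3.58.1, R 4.3.3) or no background subtraction on the raw median signal, the mean of probes, other filters and thresholds. The members, lists and the motif were chosen with earlier results of these data known, and the genes with the motif were examined after the data were seen. Named from the lists are those past 2-fold (at most 4 a list), else the 2 brightest, and Hsf1, Hsf2, Cirbp, Rbm3, Bag3 and Hspa5. Beyond this rule, all 8 chaperones of the endoplasmic reticulum past 2-fold were named. They and the markers past 2-fold were named after their values were seen. No protein sequences were used here, so that the planned identity between members was not run. A list of genes and a list of markers are not reported here.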

Additional observations from a re-analysis of the deposited data

How the results depend on the processing

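No paired analysis was possible because each group has 1 array. The count of 2 heat shock protein genes past 2-fold was 3 with scaling by the medians, 1 with the normexp correction, 4 at 1.5-fold and 1 at 3-fold, and stayed at 2 with scaling by the 75th percentile, with no background subtraction, with the mean of the probes, with both changed filters and with no lower bound. Their median of 0.57 was 0.78 with scaling by the medians, which moved the median of all genes by 0.09, and 0.57 to 0.66 otherwise. The count over all genes, 1293 (537 higher and 756 lower), was 527 with normexp, 750 with no background subtraction, 2023 with no filter on dim probes, 3451 at 1.5-fold and 469 at 3-fold. The split was 717 higher and 649 lower with scaling by the medians, 810 and 740 with the mean of the probes, and 876 and 760 with no lower bound. The 2-unit motif was in 15.1% of all windows and the 3-unit motif in 0.603%. Over genes and probes of the members, 31 values under an alternative moved by more than the replicate-spot SD, 97 did not, and Hspb1 was the only gene that changed sign. Signal close to the background limits Hspa1a alone among the members.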
